A study of Mus musculus with 12 samples.

Results

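The experiment compared plasmablasts (PBs) that lack the transcription factor Xbp1 with Xbp1-expressing PBs of the same culture, across every gene listed for these libraries. Its members are the 4 day 8 PB libraries of 2 genotypes, with 2 libraries of *Cd23*-Cre *Xbp1* fl/fl cells and 2 of *Xbp1* fl/fl cells as control, among 12 samples of the series, of which 10 are RNA-seq libraries. They list 24189 genes, and 12125 genes with at least 1 TPM (transcript abundance corrected for transcript length and set to a fixed sum per library) in at least 2 PB libraries were tested. Splenic CD43- B cells of C57BL/6 mice were grown for 4 days with IL-4 and for 4 days with IL-21 on irradiated 40LB cells, a fibroblast line that presents CD40 ligand and BAFF, and PBs were sorted by surface markers that include CD138 and the absence of CD23 (the iGB culture). Cre under control of Cd23 becomes active in immature B cells, before the stage at which the culture began, and both genotypes carry the floxed (fl) *Xbp1* alleles. Another pair of day 8 PB libraries, with CreER inserted into both copies of *Bhlha15* (*Bhlha15* CreER/CreER), entered the fit and shares the *Xbp1* fl/fl libraries as controls. Plasma cells (PCs) of immunized mice, labelled wildtype or *Cd23*-Cre *Bhlha15* fl/fl and taken on day 7, served for side comparisons. So did lists of Mist1-binding regions from day 4 LPS cultures labelled *Bhlha15* fl/fl R26 BirA/BirA.

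Xbp1 is the transcription factor of the Ire1 branch of the unfolded protein response (UPR). When unfolded proteins accumulate in the endoplasmic reticulum (ER), the membrane kinase and nuclease Ire1 (gene *Ern1*) cuts *Xbp1* mRNA, and ligation of the ends gives the active factor, while the sensors Perk (*Eif2ak3*) and Atf6 start the other branches. A PB makes and exports immunoglobulin in bulk, and each antibody chain must enter the ER, fold, form disulfide bonds, receive N-glycans and leave in COPII vesicles. Xbp1 is known for building up this machinery in secretory cells.

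Levels below are deposited TPM, and fold changes are Xbp1-deficient relative to control PBs on a log2 scale after each library was scaled by a median of ratios. A gene was called at an adjusted p under 0.05 (limma, Benjamini-Hochberg over 12125 genes) with a change over 1.5-fold (moderate call), and a strong call also needed a change over 3-fold and a mean above 5 TPM in the higher genotype. By the strong call 198 genes (1.63% of genes tested) fell and 29 (0.239%) rose. By the moderate call 1172 genes (9.67%) fell and 388 (3.2%) rose. Without scaling 796 genes fell and 1033 rose by the moderate call, and 131 and 38 by the strong call. Replicates of a genotype lay close together, with a median difference per gene of 0.107 in control and 0.0979 in Xbp1-deficient PBs on the log2 scale. Scaling brought the median change over the 12125 genes from 0.21 to 0.0041 on the log2 scale, so that the direction of small changes depends on it. The p-values measure the spread between 2 libraries per genotype, and bulk libraries cannot tell fewer cells of a type from less RNA per cell.

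The 11 PB markers examined held 2.4% and 2.46% of TPM in control and 1.68% and 1.63% in Xbp1-deficient libraries. *Sdc1*, the CD138 antigen used for sorting, was at 166 and 157 TPM in control and 157 and 157 TPM in Xbp1-deficient PBs, which did not pass the test (adjusted p = 0.0628). Because cells were sorted on CD138, a similar level of *Sdc1* was in part fixed by the sort. Of 11 PB markers, *Cd93*, *Tnfrsf17* (BCMA) and *Igj* (the joining chain) fell (27.3%, beside 9.67% of all genes tested). *Cxcr4* rose (9.09%, beside 3.2%). The joining chain lost its call when any of the 4 libraries was left out. *Xbp1* itself was at 3168 and 3043 TPM in control and 1981 and 2024 TPM in Xbp1-deficient PBs (log2 fold change -0.84, SE 0.12, adjusted p = 0.00144), and because a gene-level value sums over all exons, it does not measure how complete the deletion was. Neutrophil markers were higher in the Xbp1-deficient libraries, with 7 of 8 tested members called (87.5%, beside 3.2% of all genes tested). Of these 6 (*Ltf*, *Lcn2*, *S100a8*, *S100a9*, *Camp* and *Ngp*) were among the 29 strongly raised genes. *S100a8* and *S100a9* each lost the call in 8 settings, among them the removal of any of the 4 libraries. *Camp* was at 0.45 and 0.2 TPM in control and 0.204 and 0 TPM in CreER PBs. *Ngp* was at 1.04 and 0.62 TPM in control and 0.632 and 0.104 TPM in CreER PBs. Both met the filter only with the Xbp1-deficient libraries, so the filter favoured members that rose. The share of 87.5% was therefore in part fixed by the filter. The 15 markers with values, tested or not, made up 0.00142% and 0.0014% of TPM in control and 0.0144% and 0.0143% in Xbp1-deficient libraries. *Retnlg* was listed at 0 in both control libraries and at 3.75 and 3.84 TPM in the others, while the granule genes *Elane* and *Ctsg* were at 0 in all 4. When either Xbp1-deficient library was left out, 3 members of the list were called. The fibroblast markers of the feeder layer summed to 0.109% and 0.13% of TPM in control and to 0.17% and 0.157% in Xbp1-deficient libraries. Of 12 macrophage markers 2 were tested, of which *Cd68* fell (-3.07) and *Lyz2* rose (1.26), and *Csf1r*, *C1qa*, *C1qb*, *C1qc* and *Marco* stayed below 1 TPM. The part of these cells in the results below was not tested.

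Genes of the secretory pathway fell in each of 7 lists examined. In these lists, which cover translocation, N-glycosylation, glycan trimming, sugar nucleotides, folding, ER-associated degradation and ER to Golgi transport, 176 of 273 tested genes (64.5%) fell by the moderate call and 2 rose, beside 9.67% and 3.2% of all genes tested. By the strong call 66 fell and 0 rose. Without scaling 156 of them fell and 7 rose by the moderate call. The median log2 fold change of the 273 genes was -0.89, and 230 of them lay below 0. Together the genes of these lists held 15.2% and 14.7% of all TPM in the control libraries and 8.87% and 8.96% in the Xbp1-deficient libraries. They make up 33.3% of the 198 strongly lowered genes, and the other 132 lie outside them. The plot of fold changes by functional list shows the loss in each of the 7 lists and its size in the others.

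**Figure D1:**
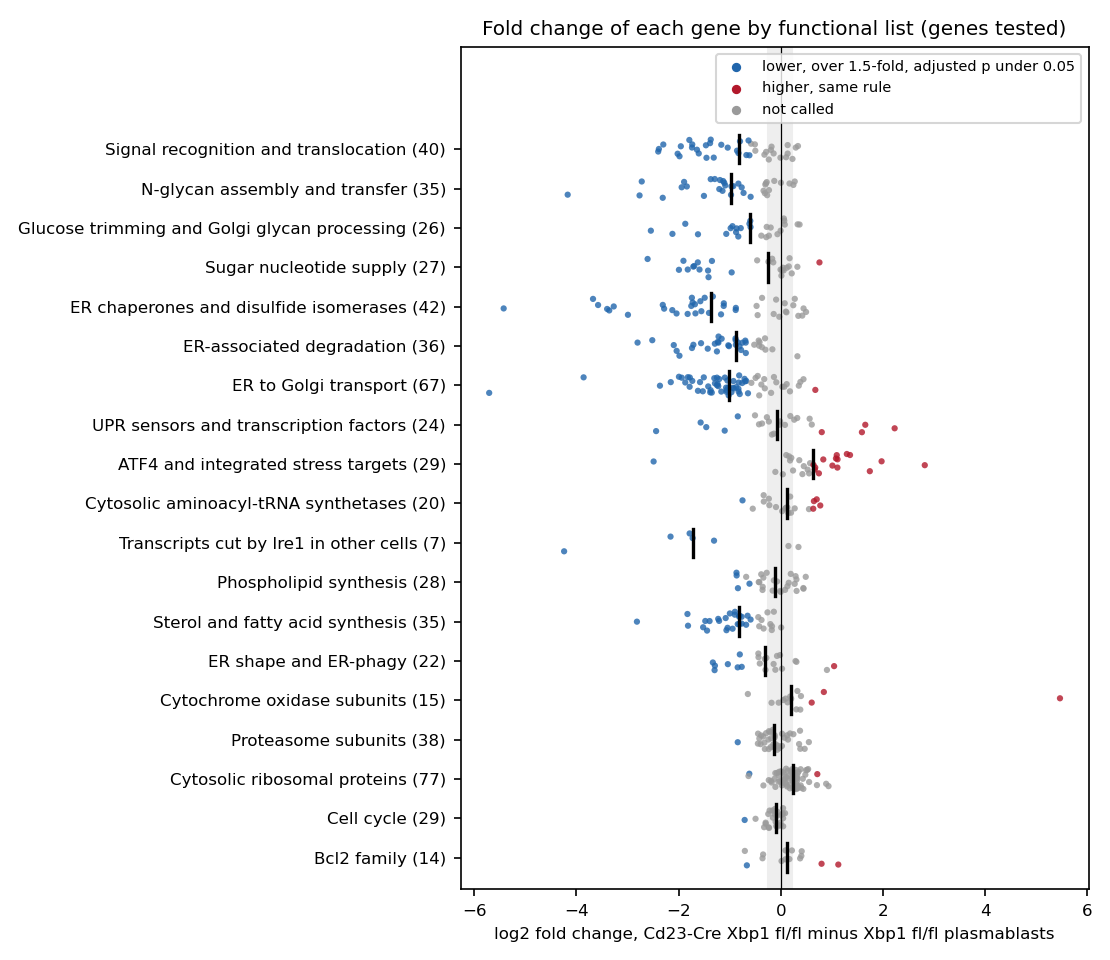
Log2 fold change of every tested gene (points, number of genes in parentheses) in 19 functional lists, coloured by the moderate call, with the median of each list as a black bar and the middle 50% of all tested genes as a grey band. The medians of the 7 secretory lists at the top lie between -1.37 and -0.24, that of the targets of ATF4 lies at 0.64, and those of ribosomal, proteasome and cell cycle genes at 0.24, -0.14 and -0.10.

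Most core parts of signal recognition and translocation were lower. The signal recognition particle (SRP) binds the signal peptide of a nascent chain, its receptor hands the ribosome to the Sec61 channel, and the TRAP complex assists insertion. *Srpr* was at 361 and 345 TPM in control PBs and at 130 and 131 TPM in Xbp1-deficient PBs, and *Srprb*, the other receptor subunit, at 290 and 280 TPM and 85.4 and 80.9 TPM. Both receptor subunits fell beyond 3-fold with no overlap of the genotypes. Exons of *Srprb* overlap those of *Trf* on the same strand. All 4 TRAP genes fell as well, led by *Ssr3* with 1421 and 1417 TPM in control and 409 and 400 TPM in Xbp1-deficient PBs (log2 fold change -2.02, SE 0.11, adjusted p = 4.96e-06). The channel genes *Sec61a1* and *Sec61b*, at 963 and 892 TPM and 841 and 799 TPM in control PBs, were at 219 and 216 TPM and 190 and 170 TPM without Xbp1. Their log2 fold changes were -2.30 (SE 0.09) and -2.40 (SE 0.11), although *Sec61b* and *Sec61g* have near-identical copies in the genome and their values are uncertain for that reason. Of 6 tested SRP proteins 5 fell, with *Srp9* changing most (-1.45, SE 0.11), and *Srp14*, its partner in the particle, was not called (-0.32, adjusted p = 0.0585).

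The fall was not shared by every insertion machine in this list. Of 10 subunits of the ER membrane complex, which inserts tail-anchored and multipass proteins, 2 fell (*Emc10* and *Mmgt1*, both not called without scaling or without control replicate 1) and the median log2 fold change was -0.10. Signal peptidase removes the signal peptide, and 4 of its 5 genes fell. Its catalytic subunit *Sec11c*, at 3866 and 3707 TPM in control PBs, fell to 2473 and 2559 TPM and lost its call without control replicate 1, and *Spcs3* fell from 1097 and 1069 TPM to 422 and 400 TPM. *Spcs1*, at 1111 and 1070 TPM in control and 1056 and 1087 TPM in Xbp1-deficient PBs, was not called (adjusted p = 0.183). Translocation genes also differed between close relatives. *Tram1* fell from 657 and 652 TPM to 276 and 271 TPM, whereas *Tram2* was at 155 and 151 TPM and 182 and 208 TPM and was not called. *Sec61a2*, the scarce relative of the channel subunit, was at 9.78 and 12.5 TPM and 12.8 and 14.7 TPM.

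Genes of N-glycan transfer had a lower median than those that assemble its donor. The oligosaccharyltransferase moves a preassembled glycan from dolichol to asparagines of the nascent chain, and 11 of its 12 genes fell, with a median log2 fold change of -1.605. *Rpn1* (ribophorin I) showed the largest fall, from 1485 and 1428 TPM in control PBs to 97.9 and 88.8 TPM in Xbp1-deficient PBs (log2 fold change -4.17, SE 0.10, adjusted p = 1.48e-07), an 18-fold lower level. *Rpn2*, at 1710 and 1595 TPM and 300 and 279 TPM, and *Ddost*, at 1900 and 1787 TPM and 320 and 306 TPM, fell by 2.72 and 2.76 on the log2 scale. The catalytic subunit *Stt3a*, which acts with the channel, fell from 1241 and 1165 TPM to 366 and 358 TPM, and *Stt3b*, which acts on sites that were skipped, from 854 and 787 TPM to 424 and 406 TPM. The 2 exchangeable oxidoreductase subunits parted. *Magt1* was at 354 and 333 TPM in control and 77.1 and 82.6 TPM in Xbp1-deficient PBs (log2 fold change -2.31, SE 0.09, adjusted p = 1.01e-06), and *Tusc3* was at 55.6 and 51.9 TPM and 64.6 and 59.9 TPM (log2 fold change 0.00, adjusted p = 0.982). The TPM of *Magt1* was above that of *Tusc3* in all 4 libraries, by a smaller margin in the Xbp1-deficient libraries.

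Of 14 genes that build the lipid-linked donor 9 fell, with a median of -0.80, and none changed beyond 3-fold. *Dpagt1*, which adds the first sugar, was at 125 and 117 TPM and 60.3 and 66.2 TPM, and *Alg2*, which adds early mannoses, fell most (-1.50, SE 0.08). The dolichol supply was called in 3 of 9 genes, and in that group *Dhdds* and *Nus1*, the subunits of the enzyme that makes the dolichol chain, were at 195 and 184 TPM and 133 and 131 TPM in control and at 58.8 and 59 TPM and 71.4 and 72.6 TPM in Xbp1-deficient PBs. The plot of translocation and transfer genes shows these values in each library.

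**Figure D2:**
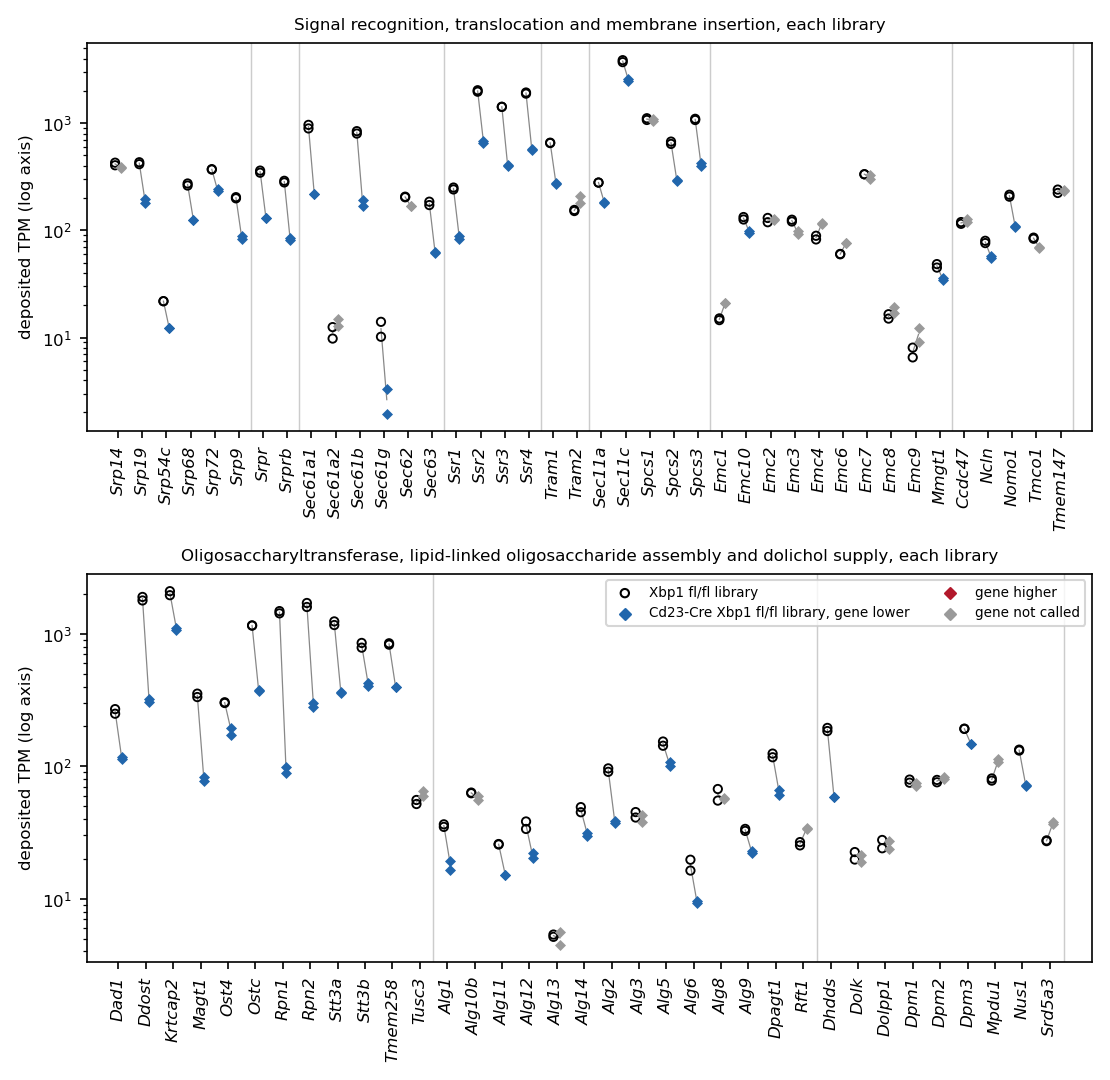
Deposited TPM (log axis) in each *Xbp1* fl/fl library (open circles) and each *Cd23*-Cre *Xbp1* fl/fl library (diamonds, blue where the gene was called lower and grey where it was not called), with lines joining the genotype means and vertical lines parting the subgroups in the order named in the text. *Rpn1* shows the steepest line, and *Tusc3*, *Tram2*, *Sec61a2* and most genes of the ER membrane complex are nearly flat.

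Trimming of glucose from the new glycan drives the calnexin cycle, and 6 of 8 genes of this step fell. *Mogs*, the glucosidase that removes the outermost glucose, fell from 172 and 168 TPM to 36 and 31.3 TPM (log2 fold change -2.54, SE 0.09, adjusted p = 7.56e-07). *Uggt1*, which puts glucose back on misfolded glycoproteins, fell from 162 and 155 TPM to 41.6 and 42.5 TPM, and its relative *Uggt2* was at 1.22 and 1.36 TPM and 1.65 and 1.49 TPM. The lectin *Calr* (calreticulin) fell from 9903 and 9005 TPM to 5935 and 5962 TPM, a call that was lost when any of the 4 libraries was left out. Its membrane-bound relative *Canx* (calnexin) was at 743 and 726 TPM and 666 and 638 TPM, a difference below 1.5-fold (-0.38, adjusted p = 0.0136). In the Golgi 8 of 18 genes fell. *Mgat2*, which starts the second antenna of complex glycans, stood apart with 370 and 359 TPM in control and 115 and 115 TPM in Xbp1-deficient PBs (-1.87, SE 0.08), and the sialyltransferase *St6gal1*, at 1278 and 1201 TPM and 1154 and 1213 TPM, was not called.

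The enzymes that charge sugars fell unevenly. In the hexosamine pathway to UDP-GlcNAc, *Gfpt1* (its rate-limiting step), *Pgm3* and *Uap1* fell, with log2 fold changes of -1.71, -1.82 and -1.41. Both subunits of GDP-mannose pyrophosphorylase fell, *Gmppa* from 365 and 386 TPM to 107 and 110 TPM and *Gmppb* from 166 and 158 TPM to 31.9 and 29.4 TPM, while *Pmm1*, an enzyme upstream of them, rose from 66.8 and 66.1 TPM to 128 and 131 TPM (log2 fold change 0.76, SE 0.07, adjusted p = 0.000112). Exons of *Gmppb* and *Pgm3* overlap neighbouring genes, and whether the counting used strand is not given in the sources used here. *Slc35b1*, which carries ATP into the ER for its chaperones, fell from 737 and 684 TPM to 217 and 221 TPM.

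Many folding factors fell, while the main chaperones BiP and Grp94 were not called. *Hspa5* (BiP), the Hsp70 chaperone of the ER, was at 7262 and 7136 TPM in control and 8616 and 9223 TPM in Xbp1-deficient PBs (log2 fold change 0.10, SE 0.18, adjusted p = 0.721). *Hsp90b1* (Grp94), the Hsp90 chaperone of the ER, was at 15657 and 15277 TPM and 21101 and 21269 TPM (0.25, SE 0.23, adjusted p = 0.47). Both were higher in each Xbp1-deficient library than in either control library on the deposited scale, with log2 fold changes of 0.31 and 0.45 without scaling, below 1.5-fold (adjusted p = 0.00208 and 0.000236). After quantile normalization the values were 0.92 and 0.50, and *Hspa5* was called higher (adjusted p = 3.86e-07). In contrast 13 of the 18 genes of the BiP and Grp94 group fell, 10 of them beyond 3-fold.

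The partners that load, stimulate or reset BiP were among those that fell. *Hyou1*, an exchange factor for BiP, was at 1206 and 1170 TPM in control and at 136 and 132 TPM in Xbp1-deficient PBs (log2 fold change -3.36, SE 0.09, adjusted p = 1.6e-07), a 10.3-fold lower level, and *Sil1*, the other exchange factor, fell from 224 and 227 TPM to 86.7 and 76.2 TPM. Genes of J-domain proteins, which bring clients to BiP, fell as well, with *Dnajb9* going from 308 and 304 TPM to 26.7 and 32.7 TPM, *Dnajc3* from 520 and 492 TPM to 57.2 and 53.4 TPM and *Dnajb11* from 967 and 927 TPM to 138 and 136 TPM. *Sdf2l1*, which acts with *Dnajb11*, fell from 1930 and 1875 TPM to 558 and 511 TPM. *Creld2* and *Manf*, secreted UPR products, fell by 2.12 and 1.11 on the log2 scale. *Ficd*, which modifies BiP, is also among the strongly lowered genes (-1.78, SE 0.13) and was singled out after its value was seen.

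Disulfide formation changed in 8 of 14 isomerase genes and 3 of 4 oxidase genes. *Erp44*, which retains and returns thiol-bearing clients such as unassembled IgM from the Golgi, fell from 638 and 614 TPM to 58.2 and 54.8 TPM (log2 fold change -3.68, SE 0.11, adjusted p = 2.89e-07). *Pdia6*, *P4hb* and *Pdia4*, the abundant isomerases, were at 3086 and 2956 TPM, 1862 and 1865 TPM and 3938 and 3816 TPM in control PBs and fell by 1.75, 1.82 and 0.88 on the log2 scale. The oxidases that recharge them again parted by relative, since *Ero1lb* fell from 228 and 225 TPM to 56.4 and 49.2 TPM and *Ero1l* was at 158 and 172 TPM and 276 and 212 TPM (adjusted p = 0.061). *Erp29*, at 649 and 621 TPM and 538 and 518 TPM, did not reach 1.5-fold. Of the prolyl isomerases, *Fkbp11*, *Ppib* (cyclophilin B) and *Fkbp2* fell, with log2 fold changes of -5.43, -1.74 and -1.12, while *Fkbp7*, *Fkbp9* and *Fkbp14* did not.

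Membership of the ER lumen can also be read from the protein. Coding sequences of the mm9 annotation (GENCODE M1) were translated, and 38 tested genes encode a protein that ends in a KDEL-like retrieval signal, which returns an escaped lumen protein from the Golgi. Of these 15 (39.5%) fell by the moderate call and 0 rose, beside 9.69% and 3.19% of 10800 genes with a protein, and 8 fell beyond 3-fold. The 23 that were not called include both main chaperones and the collagen maturation genes *Serpinh1*, *Leprel2*, *Fkbp10* and *Rcn3*, with log2 fold changes of 0.28, 0.32, 0.35 and -0.01. The fibroblast collagen gene *Col1a1* was at 588 and 705 TPM in control and 904 and 834 TPM in Xbp1-deficient libraries, and the part of feeder RNA in these values was not tested. Among the 15 that fell are *Erp44*, *Uggt1* and *Edem3*.

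**Figure D3:**
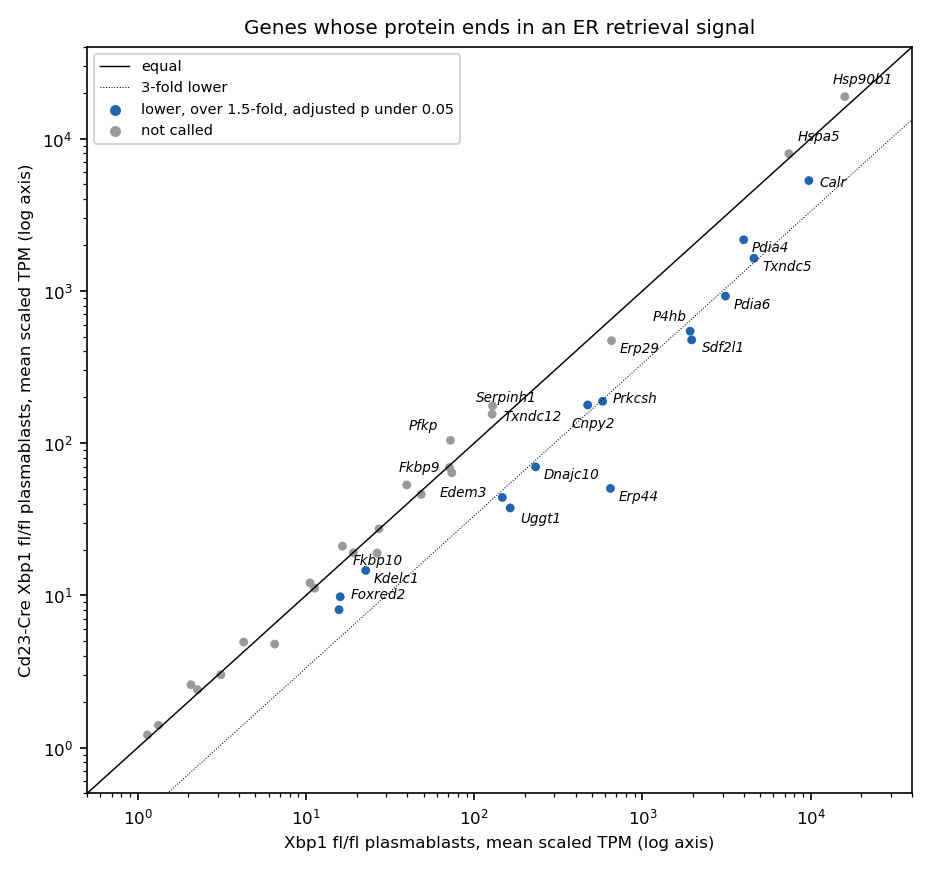
Mean scaled TPM of 38 genes whose protein ends in a retrieval signal in *Xbp1* fl/fl PBs (x axis) and *Cd23*-Cre *Xbp1* fl/fl PBs (y axis), both on log axes, with a solid line at equal levels and a dotted line at a 3-fold lower level. *Hsp90b1* and *Hspa5* lie at the top right, just above the line of equal levels, while *Erp44* lies furthest below it.

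Genes for proteins with a stretch of hydrophobic residues, as in signal peptides and membrane spans, are described here by the share that fell. Of 3530 genes whose protein holds a window of 19 residues with a mean Kyte-Doolittle hydropathy of at least 1.6, 589 (16.7%) fell, beside 457 of 7270 (6.29%) without such a window. The shares that rose were 3.4% and 3.09%. Outside the 7 secretory lists 14.1% and 5.66% fell, and 3.55% and 3.11% rose. These counts describe the genes and carry no test.

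ER-associated degradation returns misfolded proteins to the cytosol, and 27 of 36 genes fell. The 5 lectins and mannosidases that pick glycoproteins for disposal all fell, with *Edem2* going from 844 and 809 TPM to 137 and 137 TPM (log2 fold change -2.80, SE 0.09, adjusted p = 6.04e-07) and *Os9* from 803 and 755 TPM to 218 and 220 TPM. The ligase *Syvn1* (Hrd1) fell from 458 and 443 TPM to 184 and 203 TPM and its partner *Sel1l* from 434 and 409 TPM to 268 and 301 TPM. *Herpud1*, which organizes this complex, was at 1607 and 1682 TPM and 1364 and 1471 TPM and was not called (-0.42, adjusted p = 0.0457). In the extraction step *Vimp* (selenoprotein S) fell from 676 and 677 TPM to 174 and 192 TPM, and the ATPase *Vcp*, which pulls substrates out of the membrane, fell by less (-0.75, SE 0.08). The calls of *Sel1l* and *Vcp* were lost without scaling.

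All 7 genes of the UFM1 system fell. UFM1 is a ubiquitin-like modifier that is attached to a ribosomal protein of ER-bound ribosomes. Its ligase *Ufl1* was at 80.8 and 87.3 TPM in control and 25.2 and 23.7 TPM in Xbp1-deficient PBs (log2 fold change -1.98, SE 0.09, adjusted p = 3e-06). *Ufm1* itself fell from 63.1 and 63 TPM to 30.1 and 29.4 TPM, and the conjugating enzyme *Ufc1* changed least (-0.81, SE 0.12). By comparison 0 of 17 genes of the proteasome core were called, and their median was -0.19.

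Export from the ER fell in 49 of 67 genes, and relatives within the COPII coat differed in their calls. Sec24 proteins select cargo for the vesicle. *Sec24d* was at 318 and 306 TPM in control and 26 and 23.5 TPM in Xbp1-deficient PBs (log2 fold change -3.86, SE 0.09, adjusted p = 1.48e-07), a 14.5-fold lower level, and its exons overlap those of *Mettl14* on the opposite strand. *Sec24a* was at 60.2 and 63.2 TPM and 47.8 and 56.7 TPM, *Sec24b* at 37.4 and 37.5 TPM and 37.6 and 38.3 TPM, and *Sec24c* at 170 and 167 TPM and 124 and 127 TPM, of which *Sec24c* alone was called (-0.64), though not without scaling or without control replicate 1. *Sec24d* thus moved from the highest level of the 4 genes to the lowest. In the same way *Sec23b* fell from 324 and 308 TPM to 92.9 and 97.3 TPM and *Sec23a*, at 70.6 and 66 TPM and 53.1 and 59 TPM, was not called. *Sar1a* fell (-1.07) and *Sar1b* did not reach 1.5-fold (-0.31). *Preb* (Sec12), which starts the coat by loading Sar1, fell from 129 and 131 TPM to 40.4 and 41.6 TPM.

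Most cargo receptors and genes of the return path fell. *Lman1* (ERGIC-53) and its partner *Mcfd2*, which carry glycoproteins out of the ER, were at 671 and 648 TPM and 89.4 and 88.4 TPM in control PBs and at 167 and 175 TPM and 33.6 and 35 TPM in Xbp1-deficient PBs. The receptor *Surf4* fell from 898 and 822 TPM to 298 and 299 TPM, and 7 of 8 p24 family genes (*Tmed2*, *Tmed3*, *Tmed5*, *Tmed7*, *Tmed9* and *Tmed10* lower, *Tmed1* higher) were called. *Tmed1* was at 7.43 and 8.15 TPM and 13.1 and 16 TPM, so that the member that rose was the least abundant. The call of *Tmed1* was lost without Xbp1-deficient replicate 2 and that of *Tmed7* without scaling. Of 18 genes of the COPI coat and retrieval receptors 14 fell, with *Arfgap3* changing most (-1.99, SE 0.08) and *Cope* falling from 871 and 851 TPM to 381 and 363 TPM. *Kdelr2*, a receptor for the retrieval signal, fell from 401 and 378 TPM to 154 and 163 TPM, and *Kdelr1*, at 427 and 402 TPM and 322 and 321 TPM, missed the threshold of 1.5-fold (-0.58). The SNARE gene *Bet1* fell from 212 and 209 TPM to 49.2 and 45.2 TPM. *Hid1*, a peripheral protein of the late Golgi that was placed in this list, had its largest change (-5.71, SE 0.15).

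The sensors of the UPR moved in different directions. *Ern1*, which encodes Ire1, rose from 50.5 and 52.2 TPM in control to 168 and 209 TPM in Xbp1-deficient PBs (log2 fold change 1.66, SE 0.11, adjusted p = 1.87e-05). *Eif2ak3*, which encodes Perk, fell from 77.7 and 75 TPM to 30 and 29.4 TPM (log2 fold change -1.57, SE 0.08, adjusted p = 3.91e-06). *Atf6* was at 177 and 171 TPM and 144 and 168 TPM and was not called (-0.37, adjusted p = 0.0199), while its relative *Atf6b* fell from 231 and 228 TPM to 51.2 and 46.4 TPM (log2 fold change -2.44, SE 0.08, adjusted p = 6.51e-07). Thus 1 sensor gene was higher, 2 were lower and 1 was not called, with no overlap between genotypes for the 3 that changed. The proteases *Mbtps1* and *Mbtps2*, which release Atf6 in the Golgi, were not called.

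Several factors downstream of Perk rose, while *Atf4* mRNA was not called. Phosphorylation of eIF2alpha by Perk and related kinases lowers translation and favours that of *Atf4*. *Atf4* was at 515 and 561 TPM and 562 and 540 TPM (-0.17, adjusted p = 0.338), and *Atf3* was at 7.5 and 13.1 TPM and 11.5 and 11.1 TPM. Downstream factors rose, with *Ddit3* (Chop) going from 71.9 and 100 TPM to 299 and 291 TPM (log2 fold change 1.59, SE 0.12, adjusted p = 3.23e-05), *Atf5* from 99.6 and 100 TPM to 546 and 537 TPM and *Cebpb* from 31.8 and 31.4 TPM to 65.6 and 61.9 TPM. Exons of *Ddit3* overlap *Mars* and those of *Atf5* overlap Il4i1 and *Nup62* on the opposite strand, and *Mars* was not called (0.27, adjusted p = 0.0598). *Ppp1r15b*, a constitutive subunit of the eIF2alpha phosphatase, fell from 107 and 110 TPM to 58 and 58.9 TPM, and the inducible subunit *Ppp1r15a* was not called. *Creb3l2*, an ER membrane-bound factor that is cleaved like Atf6, fell from 101 and 95.5 TPM to 40.3 and 42.1 TPM.

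Many targets of ATF4 rose. Of 29 tested genes 15 rose (51.7%, beside 3.2% of all genes tested) and 1 fell, and the median log2 fold change was 0.64. The arginine and lysine transporter *Slc7a3* rose from 14.8 and 13.4 TPM to 109 and 122 TPM (log2 fold change 2.82, SE 0.18, adjusted p = 1.29e-05), the pseudokinase *Trib3* from 11.8 and 12.6 TPM to 58.5 and 53 TPM (log2 fold change 1.97, SE 0.10, adjusted p = 3.78e-06) and the glycine transporter *Slc6a9* from 8.23 and 7.55 TPM to 28.7 and 33.1 TPM. In serine synthesis *Psat1* and *Psph* rose by 0.75 and 1.11 on the log2 scale, and *Phgdh*, at the head of that pathway, was below 1.5-fold (0.45). *Mthfd2* and *Shmt2* of the mitochondrial one-carbon cycle, *Asns* (asparagine synthetase), *Pck2* and *Cth* rose as well. The glutathione-degrading enzyme *Chac1* rose from 74.3 and 84.6 TPM to 172 and 219 TPM. The exception was *Slc1a5*, the glutamine transporter ASCT2, which fell from 391 and 400 TPM to 76.4 and 86.5 TPM (log2 fold change -2.49, SE 0.09, adjusted p = 1.01e-06) while the transporter chains *Slc7a5* and *Slc3a2* rose (0.68 and 0.83). As a share of all TPM the list rose from 0.384% and 0.381% to 0.626% and 0.642%.

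**Figure D4:**
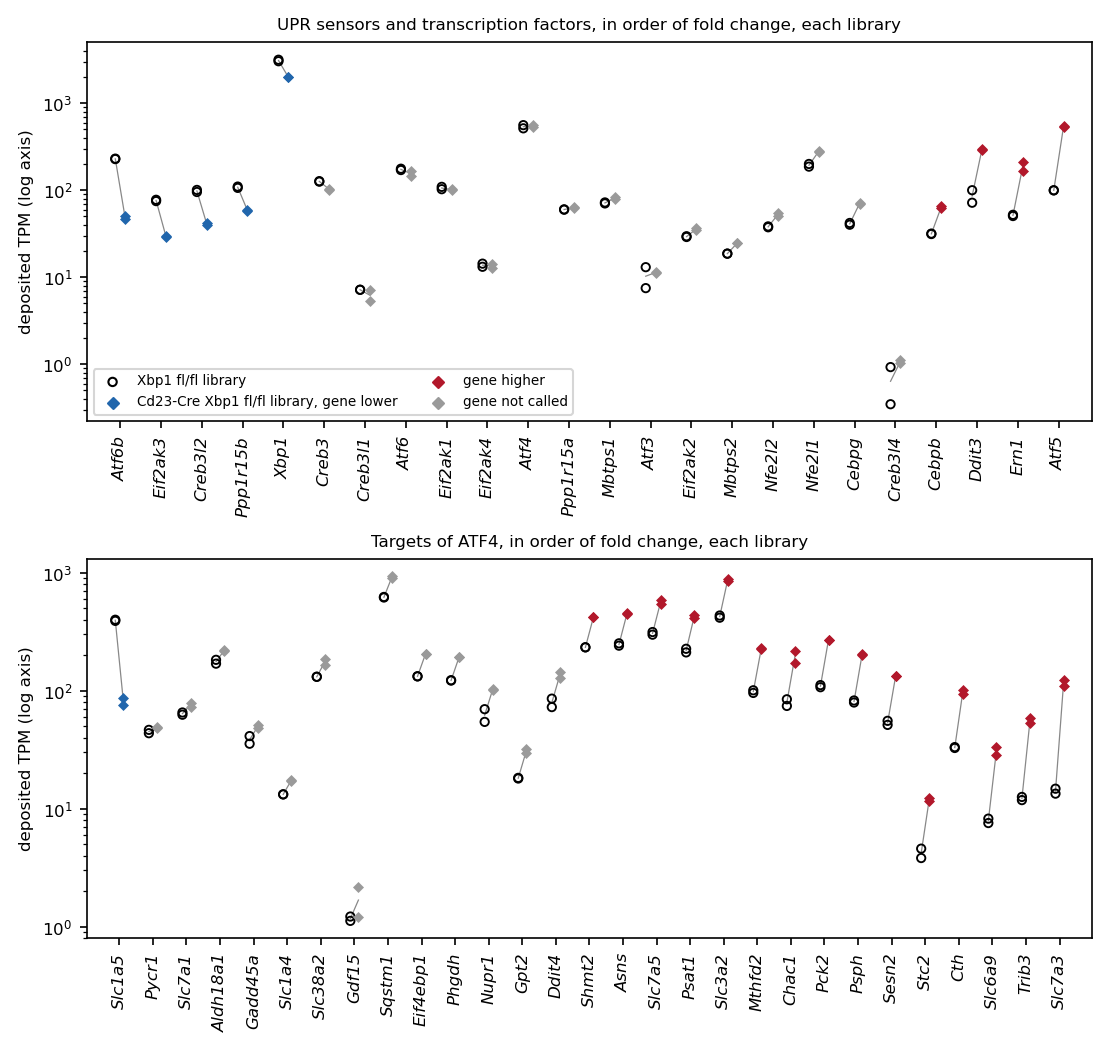
Deposited TPM (log axis) of UPR sensors and transcription factors (top) and targets of ATF4 (bottom) in each *Xbp1* fl/fl library (open circles) and each *Cd23*-Cre *Xbp1* fl/fl library (diamonds, coloured by the call), in order of fold change. *Ern1*, *Ddit3* and *Atf5* stand at the higher end of the top panel and *Atf6b* and *Eif2ak3* at the lower end, and *Slc1a5* is the lone gene of the bottom panel that fell.

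Genes of tRNA charging, which ATF4 is known to raise for many amino acids, rose in part. Of 20 cytosolic aminoacyl-tRNA synthetases 4 rose (20.0%, beside 3.2% of all genes tested), namely *Aars* (0.77), *Sars* (0.70), *Cars* (0.65) and *Yars* (0.64). *Hars* fell (-0.75), which is 5.0% of the list beside 9.67% of all genes tested. The call of *Yars* was lost without control replicate 2 and that of *Hars* without scaling, and exons of *Hars* overlap those of *Hars2* on the opposite strand. Among 14 tested genes of the *Bcl2* family, the death gene *Bbc3* (Puma) rose from 22.6 and 24 TPM to 60 and 57.9 TPM and the survival gene *Bcl2l1* (Bcl-xL) from 153 and 144 TPM to 297 and 301 TPM, while *Bcl2l11* (Bim) and *Mcl1* were not called. *Bcl2l2* fell (-0.66) and lost its call without scaling, after quantile normalization and when control replicate 2 or Xbp1-deficient replicate 1 was left out.

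Ire1 can also cut mRNAs other than that of *Xbp1*, and most tested transcripts known as cut in other cells were lower here. Of 7 tested genes of that list 5 fell (71.4%, beside 9.67% of all genes tested). *Itgb2*, the integrin beta2 chain, was at 339 and 313 TPM in control and 19.6 and 20 TPM in Xbp1-deficient PBs, *Tapbp* (tapasin) at 624 and 571 TPM and 155 and 153 TPM, *Hgsnat* at 42.3 and 41 TPM and 15.5 and 13.5 TPM, and *Bloc1s1* at 75.7 and 86.8 TPM and 40.5 and 35.3 TPM. *Ergic3*, which is also a cargo receptor, was the fifth (-1.78, SE 0.12). *Sparc* and *Col6a1*, genes with high levels in fibroblasts, were not called (0.35 and 0.15). *Bloc1s1* has a near-identical copy and overlaps Rdh5, and exons of *Tapbp* overlap *Zbtb22*. The levels do not tell lower transcription from faster decay. In the PC comparison for *Bhlha15*, *Itgb2* fell (-0.90), *Hgsnat* rose (0.67) and *Tapbp* and *Ergic3* were not called.

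Sterol synthesis fell along almost the whole pathway, whereas most phospholipid genes were not called. Of 20 genes of the sterol pathway 17 fell with a median of -0.94. *Fdps*, which makes farnesyl diphosphate, fell from 134 and 141 TPM to 48.9 and 40.8 TPM (log2 fold change -1.83, SE 0.11, adjusted p = 8.39e-06), and *Cyp51*, a sterol demethylase, fell from 163 and 163 TPM to 72.7 and 62.9 TPM. *Fdps* has near-identical copies in the genome and its value is uncertain for that reason. The regulators fell as well, with *Srebf2*, the factor that drives this pathway, going from 341 and 328 TPM to 145 and 125 TPM and *Insig1*, which holds it in the ER, from 222 and 219 TPM to 39.5 and 32.8 TPM (log2 fold change -2.82, SE 0.10, adjusted p = 8.91e-07). *Insig2* and *Scap* did not reach 1.5-fold. *Soat2*, which esterifies cholesterol, rose from 0.57 and 0.79 TPM to 8.53 and 7.63 TPM (log2 fold change 3.20, SE 0.31, adjusted p = 0.000125).

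In fatty acid synthesis the desaturases *Scd1*, *Scd2*, *Fads1* and *Fads2* and the elongase *Elovl6* fell, with log2 fold changes between -0.94 and -0.68, and *Fads1* and *Elovl6* were not called without scaling or without Xbp1-deficient replicate 2. The enzymes that make the chain, *Acly* (-0.17), *Acaca* (-0.20) and *Fasn* (-0.42), were not called. Of 28 phospholipid genes 4 fell (14.3%, beside 9.67% of all genes), namely *Etnk1*, *Agpat6*, *Agpat2* and *Pcyt2*, and *Agpat2* lost its call when either control library or Xbp1-deficient replicate 1 was left out, and *Pcyt2* without scaling or Xbp1-deficient replicate 2. *Pcyt1a*, the rate-limiting step to phosphatidylcholine, was at 31.5 and 30.9 TPM and 26.6 and 27.3 TPM (-0.42).

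Some genes that shape the ER and some that remove it were called. Among 16 shaping genes *Rrbp1*, the ribosome-binding protein of the rough ER, fell from 361 and 354 TPM to 165 and 171 TPM, the sheet protein *Ckap4* from 710 and 653 TPM to 454 and 474 TPM (not called without scaling) and *Reep5* from 303 and 280 TPM to 189 and 197 TPM. *Reep6* rose from 4.81 and 4.46 TPM to 10.9 and 11.4 TPM, and the atlastins and reticulons were not called. Of 6 ER-phagy receptors, which tether ER fragments to autophagosomes, 4 fell, namely *Ccpg1* (-1.33), *Tex264* (-1.29), *Fam134c* (-1.04) and *Fam134a* (-0.84). Exons of *Ccpg1* overlap Dyx1c1.

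Most cell cycle and ribosomal protein genes were not called, as was the case for 10565 of all 12125 genes tested. Of 15 tested subunits of cytochrome oxidase 3 rose (20.0%, beside 3.2% of all genes tested), and 12 lay above 0. Of 29 cell cycle genes 1 fell (*Cdc20*, -0.71, not called without scaling), and *Mki67* was at 419 and 415 TPM and 466 and 493 TPM. Of 77 ribosomal protein genes 1 fell and 1 rose, with a median of 0.24, and without scaling 12 rose and 0 fell. Their share of TPM was 5.73% and 5.63% in control and 7.98% and 7.68% in Xbp1-deficient libraries. Among 15 subunits of cytochrome oxidase the muscle isoform *Cox6a2* rose from 4.09 and 4.19 TPM to 190 and 246 TPM (log2 fold change 5.47, SE 0.13, adjusted p = 1.48e-07), and the common isoform *Cox6a1* was at 847 and 827 TPM and 1103 and 1123 TPM and was not called. *Cox6a2* overlaps Itgad on the opposite strand. *Cox6b2* and *Cox4i2*, other tissue-restricted isoforms, were called higher (0.84 and 0.61), and both lost the call when control replicate 1 or Xbp1-deficient replicate 1 was left out.

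Antigen receptor and presentation genes did not move as a block. *Cd79a* fell from 802 and 814 TPM to 656 and 585 TPM and its partner *Cd79b* rose from 1231 and 1161 TPM to 2281 and 2269 TPM (log2 fold change 0.72, SE 0.12, adjusted p = 0.00311). The call of *Cd79a* was lost without scaling, without control replicate 1 and without Xbp1-deficient replicate 2. Of the H2-DM chains, which load peptide on class II molecules, the alpha gene *H2-DMa* rose (0.63, not called without control replicate 2) and the beta genes *H2-DMb1* and *H2-DMb2* fell (-1.17 and -0.88). *H2-Ab1* fell by 0.74 on the log2 scale and lost its call without scaling and when any of the 4 libraries was left out, and *Cd74*, at 22481 and 21592 TPM and 20624 and 20871 TPM, was not called. The inhibitory receptors *Cd22* and *Cd72* and the tetraspanin *Cd37* fell, and *Cd72* lost its call without scaling, without control replicate 1 and without Xbp1-deficient replicate 1. In all 7 of 25 genes of B cell identity fell (28.0%, beside 9.67% of all genes tested) and 2 rose (8.0%, beside 3.2%). Of the marker genes of other cells, *Cd68* fell from 128 and 131 TPM to 16.9 and 18.7 TPM, *Lyz2* rose from 5.86 and 5.22 TPM to 15.1 and 15.8 TPM and *Thy1* rose from 33.8 and 40.2 TPM to 109 and 103 TPM, while *Cd3e* and *Cd8a* were near 0.

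The elements through which UPR factors are known to act were searched in promoters. RefSeq promoters of GRCm38.p6 (32851 windows, 250 bases before to 50 after a start) were matched by symbol to 9521 of the 12125 tested genes, of which 918 (9.64%) had fallen. Both strands were searched. The ER stress response element (ERSE) is CCAAT, then 9 bases, then CCACG. ERSE-II holds the same boxes 1 base apart, with one of them inverted, and the UPR element (UPRE) is TGACGTGG, which contains the core CCACGT on the other strand. The strongest calls that hold an element are shown because they join a large fall to a letter match, and the main chaperones are shown beside them because they hold ERSEs and were not called, a choice made after their values were seen. Capitals mark the element, or for ERSE and ERSE-II its boxes, in 100 bases of the sense strand of each gene.
D10Bwg1379e: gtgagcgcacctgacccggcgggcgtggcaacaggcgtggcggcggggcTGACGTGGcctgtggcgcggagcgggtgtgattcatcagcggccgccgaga
Sec24d: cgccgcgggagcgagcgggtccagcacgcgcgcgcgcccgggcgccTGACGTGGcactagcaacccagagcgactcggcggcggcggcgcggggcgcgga
Isg20: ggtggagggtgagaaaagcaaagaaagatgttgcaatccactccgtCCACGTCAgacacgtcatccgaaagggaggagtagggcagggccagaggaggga
Dnajc3: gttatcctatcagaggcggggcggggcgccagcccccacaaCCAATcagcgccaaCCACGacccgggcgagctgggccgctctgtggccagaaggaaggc
Nucb1: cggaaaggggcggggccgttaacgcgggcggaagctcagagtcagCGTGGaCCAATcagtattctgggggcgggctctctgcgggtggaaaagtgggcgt
Kcnab2: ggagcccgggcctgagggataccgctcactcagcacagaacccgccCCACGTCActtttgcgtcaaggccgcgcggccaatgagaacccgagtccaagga
Hspa5: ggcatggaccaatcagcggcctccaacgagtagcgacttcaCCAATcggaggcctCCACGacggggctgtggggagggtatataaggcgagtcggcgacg
Hsp90b1: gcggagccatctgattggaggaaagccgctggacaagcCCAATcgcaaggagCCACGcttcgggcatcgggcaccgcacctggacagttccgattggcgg

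These stretches lie at chr10:18743709-18743808 (*D10Bwg1379e*, minus strand), chr3:123267424-123267523 (*Sec24d*, plus), chr7:78913699-78913798 (*Isg20*, plus), chr14:118937786-118937885 (*Dnajc3*, plus), chr7:45510395-45510494 (*Nucb1*, minus), chr4:152477674-152477773 (*Kcnab2*, minus), chr2:34771984-34772083 (*Hspa5*, plus) and chr10:86705595-86705694 (*Hsp90b1*, minus) of GRCm38.p6. *Isg20*, an exonuclease gene, fell from 343 and 337 TPM to 35.3 and 35.1 TPM, *Nucb1*, a calcium-binding Golgi protein, from 1279 and 1252 TPM to 151 and 141 TPM, and *Kcnab2*, a potassium channel subunit, from 159 and 157 TPM to 20.5 and 21.4 TPM. *D10Bwg1379e*, with 13 and 11.6 TPM in control PBs, was at 0.542 and 0.973 TPM without Xbp1. The UPRE of *D10Bwg1379e* begins 1 base before the RefSeq start and that of *Sec24d* 26 bases before it.

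An ERSE is rare, and part of its holders fell. It occurs in 0.119% of the RefSeq windows, which gave 16 tested genes, of which 8 fell and 0 rose. The 8 are *Dnajc3*, *Ero1lb*, *Creld2*, *Pdia6*, *Syvn1*, *Alg12*, *Derl3* and *Calr*. The other 8 include the chaperone genes *Hspa5*, *Hsp90b1* and *Canx*, so that ERSE holders among ER genes were both called and not called. With the window limited to 150 bases before the start 4 of 11 fell. ERSE-II was found for 8 tested genes, of which *Nucb1*, *Dnajb11* and *Krtcap2* fell, and *Herpud1* was not called. Of 103 genes with a UPRE 27 fell (26.2%) and 4 rose, and of 1269 genes with the shorter core 195 fell (15.4%). Genes with a cyclic AMP response element, TGACGTCA (27 of 345, 7.83%), the E-box CAGCTG (153 of 1682, 9.1%) or the GC box GGGCGG (622 of 6576, 9.46%) lay near the 9.64% of all genes with a promoter. For the composite ATF4 and C/EBP element, TGATGNAA, 30 of 254 genes fell (11.8%) and 19 rose, beside 918 that fell and 302 that rose among all 9521. The elements are matches of letters and carry no measure of binding.

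**Figure D5:**
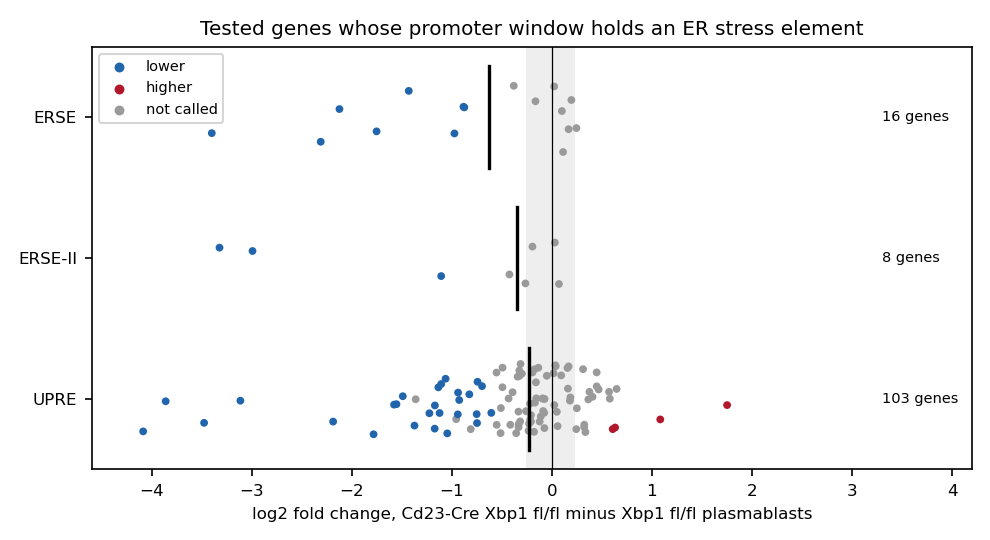
Log2 fold change of tested genes whose promoter window holds an ERSE, ERSE-II or UPRE (points coloured by the moderate call, numbers of genes at the right), with medians as black bars and the middle 50% of all tested genes as a grey band. Of the 16 ERSE points 8 are blue (lower) and none is red (higher), and the 103 UPRE points have a median of -0.23.

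Mist1, encoded by *Bhlha15* (mm9 chr5:144951155-144955310), was itself far lower in Xbp1-deficient PBs. *Bhlha15* was at 176 and 159 TPM in control and 3.57 and 2.6 TPM in Xbp1-deficient PBs (log2 fold change -5.93, SE 0.35, adjusted p = 7.61e-06). The CreER libraries share the controls, and in them *Bhlha15* changed by -8.51 on the log2 scale while the genes above gave, side by side, 0.06 for *Rpn1*, 0.04 for *Hyou1*, 0.00 for *Sec24d*, -0.01 for *Ern1*, 0.11 for *Ddit3*, -0.19 for *Insig1* and -0.30 for the potassium channel gene *Kcnk6*, which changed by -4.99 in Xbp1-deficient PBs. Other strongly lowered genes, singled out after their values were seen, also had low values there, with -2.87 for *Rab3d*, -1.87 for *Serpini1* and -1.46 for *H2-T24*, beside -2.73, -2.73 and -1.76 in Xbp1-deficient PBs, and *Atp1b1* had 1.79 beside 2.84. The PC libraries of *Cd23*-Cre *Bhlha15* fl/fl mice share no control with these PBs. Among 12028 genes tested there 979 (8.14%) fell and 388 (3.23%) rose by the moderate call, and *Bhlha15* changed by -3.99. Of 195 genes strongly lowered without Xbp1 and tested in PCs, 35 (17.9%) fell, 11 (5.64%) rose and 149 were not called, with a median of 0.034. *Rpn1*, *Hyou1* and *Sec24d* had log2 fold changes of 0.18, 0.04 and 0.23 there, and *Kcnk6*, *Rab3d*, *Serpini1* and *H2-T24* fell, with -0.89, -4.14, -3.12 and -1.43.

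The peak lists used here hold 29413 and 30247 Mist1 regions, fewer than the study describes, with 23806 in common, and how the longer lists would change the shares was not tested. Common regions lay within 1 kb of a transcription start of 147 of 184 strongly lowered genes (79.9%), beside 63.8% of 11248 tested genes with an annotated start and 13 of 28 strongly raised genes (46.4%). Highly expressed genes held such regions at a larger share. Among the most highly expressed genes (above the upper quartile of mean TPM) the shares were 101 of 111 (91.0%) and 79.5%. The 147 strongly lowered genes with a region and tested in PCs gave 28 falls and 4 rises in PCs, and the 36 without a region gave 5 falls and 7 rises. The regions come from LPS cultures labelled *Bhlha15* fl/fl R26 BirA/BirA, another culture than that of the RNA libraries.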

How the data were processed

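RNA-seq of day 8 iGB PBs was analysed for 2 *Cd23*-Cre *Xbp1* fl/fl and 2 *Xbp1* fl/fl libraries. The authors trimmed reads with cutadapt, aligned them with STAR 2.4.2 to mm9, counted them with featureCounts 1.5 and deposited TPM values per gene without immunoglobulin and T cell receptor genes, summing to 1000000 per library. TPM keep no record of depth, so that no counting interval is given. The Mist1 regions were deposited as peak positions, which the authors called with MACS on Bowtie 1.0.0 alignments of each library. Whether counting used strand is not given in the sources used here. Among the 205 genes named by rule, exons of 41 overlap a gene on the opposite strand. Exons of 15 overlap a gene on the same strand, and not every overlap is stated above.

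Gene names were matched after removal of an overlap suffix, which 3537 names carry. TPM were scaled by the median of ratios, and the log2 of scaled TPM plus 0.1 was fitted with limma 3.58.1 (lmFit, eBayes with trend) in R 4.3.3 over the 6 PB libraries, with the 4 PC libraries in a fit of their own. The fit was tested on simulated data. Genes had at least 1 TPM in at least 2 libraries. Peak lists of both libraries were intersected at 1 bp. Copies were searched with blastn 2.17.0 at 95% identity over at least 50% of the coding sequence. Motif shares by call class were not used because 77.3% of the strongly lowered genes had a promoter, below 80%, so that genes were grouped by motif.

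The members and gene lists were chosen with earlier results of these data known, and lists written from general knowledge are described by counts and medians without a test. Named genes are all UPR sensors and factors, up to 5 changed and 3 abundant members that were not called of each list, the largest and most abundant strong calls and the genes with printed promoters or a retrieval signal (up to 6 and 8), 205 in all. Relatives and further members named beside them were chosen after their values were seen. Alternatives were other scales, pseudocounts, filters and variance models, each library left out, and, chosen after seeing the data, names with the overlap suffix left out. Some members of the lists are counted and not reported here by name.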

Additional observations from a re-analysis of the deposited data

How the results depend on the processing

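Without scaling, 131 genes fell by the strong call, in place of 198, and 1033 rose by the moderate call, in place of 388, and after quantile normalization 596 rose. All 131 and all 388 were shared with the scaled result. With single libraries left out, strongly lowered genes numbered 179 to 212 and strongly raised genes 23 to 33, and moderate calls numbered 992 to 1143 lower and 302 to 353 higher. A stricter hydropathy mean of 2.0 moved the share of lowered genes with a hydrophobic window from 16.7% to 21.1%. *H2-Aa* was at -0.26 on the log2 scale and at 0.63 after quantile normalization, and the cause was not tested. Of 124 called genes among the 205 named by rule, 0 turned direction, and between 0 and 10 lost the call under a setting. *Rpl10* lost it most often, in 9 settings. Of 283 called list members, 34 lost the call without scaling, 25 after quantile normalization and 13 to 22 with a single library left out, and 0 turned direction under any of these. In these counts a gene that no longer met the filter in a setting was not counted as losing its call. With either Xbp1-deficient library left out, 121 of the 124 called named genes still met the filter. TPM keep no depth, so the precision of low genes is unknown. No paired analysis was possible because the labels carry no replicate numbers, and the numbers used here follow accession order.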

Other observations

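The genes below were grouped after their values were seen, and no test of either group was run. Class I peptide loading, in which tapasin and calreticulin hold a class I molecule until it binds a peptide, was lower in part. *B2m*, the light chain of class I molecules, fell from 9807 and 9482 TPM in control to 5468 and 5171 TPM in Xbp1-deficient PBs (log2 fold change -1.07, SE 0.19, adjusted p = 0.00339), and *Tapbp* (tapasin) fell by 2.16 on the log2 scale. The nonclassical heavy chain gene *H2-T23* fell from 571 and 540 TPM to 130 and 130 TPM (-2.30, SE 0.12) and *H2-T24* from 50.8 and 49.3 TPM to 16.9 and 17.1 TPM. *H2-T24* was also at 17.9 and 17.4 TPM in the *Bhlha15* CreER/CreER PBs, which share the controls, and fell in the PC comparison for *Bhlha15* (-1.43), while *H2-T23* was at 521 and 594 TPM in the CreER PBs. The classical heavy chain genes *H2-K1* (-0.42, adjusted p = 0.0721, limma) and *H2-D1* (0.05) and the peptide transporter genes *Tap1* (-0.18) and *Tap2* (-0.24) were not called. Class I heavy chain genes are closely related in sequence, and their values are uncertain for that reason.

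Several zinc transporters, chosen after their values were seen, were lower. *Slc30a5* and *Slc30a7*, which bring zinc into the early secretory pathway, fell from 214 and 210 TPM to 53.2 and 54.3 TPM (log2 fold change -2.19, SE 0.07, adjusted p = 6.98e-07) and from 39.6 and 40.8 TPM to 12 and 12.8 TPM. *Slc39a7*, which releases zinc from the ER, fell from 507 and 506 TPM to 148 and 158 TPM (-1.94, SE 0.09), and *Slc39a11* fell from 136 and 133 TPM to 48.8 and 54 TPM and *Slc30a4* by 0.73 on the log2 scale. *Slc30a6*, the partner of *Slc30a5*, did not reach 1.5-fold (-0.53). The surface transporters *Slc39a1* (-0.08) and *Slc30a1* (0.01) and the zinc-binding metallothionein *Mt1* (0.06) were not called.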
